A study of Drosophila melanogaster with 16 samples.

Results

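EC-tagged RNA of neuroblasts was compared with EC-tagged RNA of neurons after 3 h of chase, in the larval brain of Drosophila melanogaster. The comparison took every library whose label gives that time point, 2 of neuroblasts and 2 of neurons, which is 4 of the 16 libraries of the pulse-chase experiment. In the neuroblast libraries (labelled insc_CD:UPRT) insc-Gal4 drove UAS-CD:UPRT, and in the neuron libraries (labelled nsyb_CD:UPRT) nSyb-Gal4 drove the same enzyme. All larvae were at L3, were fed 5-ethynylcytosine (5EC) for 12 h, and were moved to medium with unlabelled uridine for 3 h before RNA extraction from crudely dissected central nervous systems. The neuroblast libraries represent every cell with insc-Gal4 activity, which includes progenitors other than neuroblasts, and the neuron libraries every cell with nSyb-Gal4 activity. The labels number the replicates 1 and 2, and those of both neuron libraries add the words read 1, which those of the neuroblast libraries do not. The methods describe 3 independently fed samples and also duplicate RNA samples for the biotinylation, and which of these the 2 libraries are is not given, so p-values measure only the spread between these samples, which may be technical.

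EC-tagging marks RNA by cell type. The fusion enzyme CD:UPRT converts 5EC to 5-ethynyluridine monophosphate, which enters RNA as it is transcribed, and the tagged RNA is then biotinylated and captured. After a chase, the tagged RNA is what was made during the pulse and has not yet decayed. Neuroblasts are the stem cells of the fly brain, dividing asymmetrically under the control of polarity proteins and of transcription factors such as Deadpan and Asense. Neurons are their postmitotic descendants and make the channels, receptors and release machinery of synapses.

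The 4 libraries differed in depth and in content before any gene was compared. Neuroblast replicates 1 and 2 had 25807630 and 31680744 estimated counts, and neuron replicates 1 and 2 had 98979690 and 178095002. Mitochondrially encoded RNA took 11.6% and 10.03% of counts in the neuroblast libraries, against 86.3% and 5.07% in the neuron libraries. Nuclear counts were 22793331 and 28432588 in the neuroblast libraries, against 13507686 and 168791989 in the neuron libraries, so neuron replicate 1 had the fewest. Mitochondrial genes were left out, and levels are given as CPM, the counts set to a common size of nuclear library after scaling by TMM, a method that sets the middle of the gene ratios equal across libraries. No counting interval (Wilson, 95%) of a share was wider than 0.0559 percentage points. Across the 8537 genes tested, Spearman's rho was 0.716 between the neuroblast libraries and 0.115 between the neuron libraries, a description over genes, which are not independent replicates. Neuron replicate 1 had a rho of 0.144 and 0.135 with the neuroblast libraries and neuron replicate 2 one of 0.450 and 0.558.

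The labelled cell types were checked against their defining genes. The 7 neuroblast markers summed to 163 and 126 CPM in the neuroblast libraries, against 745 and 127 CPM in the neuron libraries, so the labelled identity did not show in this sum. Of these markers, dpn, mira and klu were at 0 in neuroblast replicate 1, dpn was at 0 in neuron replicate 1, and wor and ase were at 0 in neuron replicate 2. The 8 neuron markers summed to 1543 and 896 CPM in the neuroblast libraries, against 1083 and 12485 CPM in the neuron libraries, where only neuron replicate 2 stood above both neuroblast libraries. Among them VGlut, the vesicular glutamate transporter, was at 0 in neuron replicate 1.

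Markers of tissues outside the labelled cells were abundant. The 6 fat body markers summed to 90398 and 34973 CPM in the neuroblast libraries, against 300 and 31022 CPM in the neuron libraries, with Fbp1 at 0 in both neuroblast libraries and Lsp2 and Fbp1 at 0 in neuron replicate 2. The 6 muscle markers, none of them at 0, summed to 15910 and 30692 CPM in the neuroblast libraries against 606.5 and 36486 CPM in the neuron libraries. The 6 glial markers summed to 266 and 338 CPM in the neuroblast libraries against 74.3 and 2525 CPM in the neuron libraries, with repo at 0 in neuroblast replicate 1 and wrapper at 0 in both neuroblast libraries and in neuron replicate 1. Neuron replicate 1 was thus the lowest library for all 3 tissues. The part of these cells in the comparisons was not tested, and in such bulk libraries fewer cells of a type and less RNA per cell cannot be told apart.

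**Figure D1:**
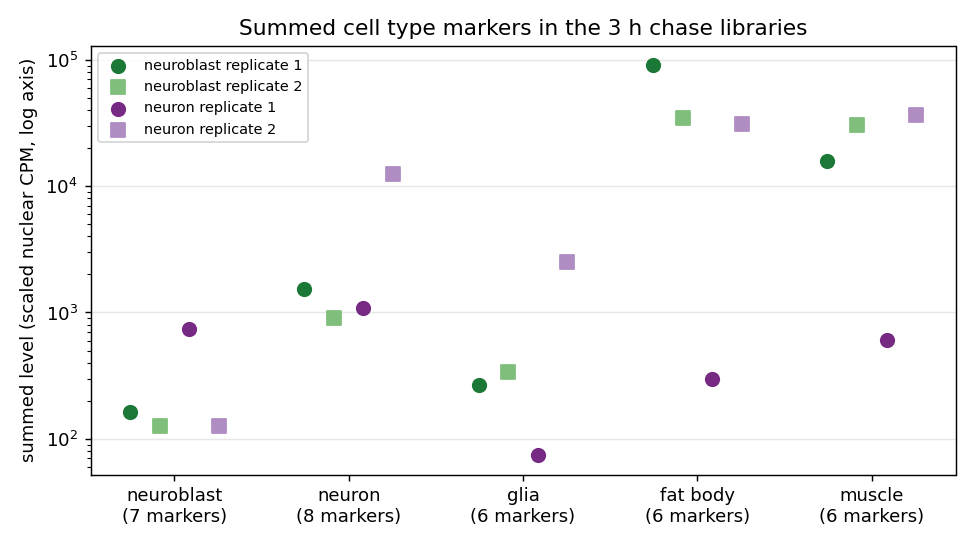
Summed level of each cell type's fixed markers (scaled nuclear CPM, logarithmic axis) in the 2 neuroblast libraries (green) and the 2 neuron libraries (purple), circles for replicate 1 and squares for replicate 2. Neuroblast markers were highest in neuron replicate 1 (745 CPM), neuron markers in neuron replicate 2 (12485 CPM), and fat body markers in neuroblast replicate 1 (90398 CPM).

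The Gal4 drivers' own genes gave the first check on single genes. nSyb (FBgn0013342, chromosome 3L, 1630348 to 1637752 in BDGP6), which encodes the neuronal synaptobrevin of synaptic vesicles, had 155 and 76.8 CPM in neuroblasts, against 216 and 1509 CPM in neurons. Its groups did not overlap, with a difference of -2.38 ± 1.49 in log2(CPM + 1), neuroblasts minus neurons (SE, n = 2 each), and an adjusted p of 0.974 by edgeR. insc (FBgn0011674, chromosome 2R, 20821262 to 20836028), which encodes the Inscuteable adaptor of spindle orientation, had 0.344 and 20.5 CPM in neuroblasts, against 96.3 and 0.144 CPM in neurons. Its groups overlapped, with the highest value in neuron replicate 1. elav, which encodes the pan-neuronal RNA-binding protein ELAV, had 348 and 186 CPM in neuroblasts, against 246 and 1736 CPM in neurons, and also overlapped.

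No gene passed the test. Of 8537 nuclear genes tested by edgeR's quasi-likelihood test, 0 were higher and 0 lower in neuroblasts at an adjusted p under 0.05 (0% called), and the lowest adjusted p was 0.788. At an unadjusted p under 0.05 there were 456 genes higher (5.34%) and 49 lower (0.574%). DESeq2 called 770 higher (9.02%) and 90 lower (1.05%), while limma-voom called 0. The common biological coefficient of variation was 1.95. Without neuron replicate 1 edgeR called 299 genes higher and 305 lower, and without neuron replicate 2 it called 788 higher and 376 lower, each with a lone neuron library assumed to vary as the neuroblast libraries do. Without neuroblast replicate 1, or without neuroblast replicate 2, it called 0 in each direction.

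A plainer count asked whether both libraries of one cell type lay beyond both of the other. Both neuroblast libraries were above both neuron libraries in 2329 genes (27.3% of those tested) and below both in 909 (10.6%). On nuclear totals these counts were 2703 and 750, and with DESeq2 size factors 2134 and 1185. The median difference over all tested genes was 0.75 in log2(CPM + 1), neuroblasts minus neurons, and it was 1.06 on nuclear totals and 0.34 with DESeq2 size factors, so medians of gene groups below are to be set against these and not against 0. The log2 fold changes fitted by edgeR had a median of -0.31, or 0.28 on nuclear totals and -0.85 with DESeq2 size factors. The sign of the middle gene thus depended on the measure. Taken alone, neuron replicate 1 lay below both neuroblast libraries in 49.4% of genes and above both in 31.1%. For neuron replicate 2 these shares were 40.3% and 37.0%. Every list was read against these shares. The filter kept a gene with enough counts in 2 libraries, so genes at or near 0 in one cell type entered only through the other and had to differ. Of the 2329 genes above, 1018 passed it only through the neuroblast libraries, with both neuron libraries under its minimum of 0.39 CPM (on nuclear totals). Of the 909 below, 70 passed only through the neuron libraries. Counts above and below in the lists are thus descriptions, and the members that entered in this way give them no support.

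The 5 genes with the lowest p in each direction had values at or near 0 in both libraries of one cell type. LysB (FBgn0004425, chromosome 3L, 1207371 to 1207981), a digestive lysozyme, had 502 and 219 CPM in neuroblasts against 0 and 0 in neurons, at least 11148-fold higher against a floor of 3 counts over both neuron libraries. LysB lies in a cluster of near-identical lysozyme genes and overlaps another coding gene, so its share of the reads is uncertain. Ugt37A2, a UDP-glycosyltransferase, had 607 and 135 CPM in neuroblasts against 0 and 0.0262 CPM in neurons. mRpS5, a protein of the mitochondrial ribosome, had 293 and 105 CPM in neuroblasts against 0 and 0.0131 CPM in neurons. Lsp1alpha, a larval serum protein made by the fat body, had 9404 and 628 CPM in neuroblasts against 0.604 and 0.0392 CPM in neurons. AGBE, the glycogen branching enzyme, had 68.0 and 299.9 CPM in neuroblasts against 0 and 0.0262 CPM in neurons. Each had an adjusted p of 0.788 by edgeR.

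In the other direction 5 genes had no count in either neuroblast library. CG13287 (FBgn0035643, chromosome 3L, 5882304 to 5884090) had 0 and 0 in neuroblasts against 104 and 450 CPM in neurons, at least 7540-fold lower in neuroblasts against the floor. Blimp-1 (FBgn0035625, chromosome 3L, 5630983 to 5652094), an ecdysone-induced transcriptional repressor, had 0 and 0 in neuroblasts against 293 and 45.1 CPM in neurons, at least 2007-fold lower. CG30222 had 0 and 0 in neuroblasts against 35.8 and 271 CPM in neurons. Poxn, a paired-domain transcription factor of sensory organ identity, had 0 and 0 in neuroblasts against 12.6 and 430 CPM in neurons and overlaps another coding gene. lbe, the homeodomain factor ladybird early, had 0 and 0 in neuroblasts against 51.6 and 205 CPM in neurons. All 5 had an adjusted p of 0.788 by edgeR.

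Many genes of the mature neuron were below both neuron libraries in neuroblasts, though none of these passed edgeR's test. Voltage-gated channels carry the currents of the action potential, and 11 of 21 tested lay below both neuron libraries while 2 lay above, with a median difference of -2.05 (on nuclear totals 9 and 2, median -1.63). By edgeR 0 of the 21 passed, with 0 at an unadjusted p under 0.05 and 0 by DESeq2. para (chromosome X, 16455027 to 16533096), the voltage-gated sodium channel, had 208 and 161 CPM in neuroblasts, against 664 and 4093 CPM in neurons, a difference of -3.16 ± 1.32. Sh, the Shaker potassium channel, had 369 and 128 CPM in neuroblasts against 1398 and 2418 CPM in neurons, a difference of -3.07 ± 0.86. In both genes each neuron library stood above each neuroblast library. cac, the presynaptic calcium channel, had 153 and 91.5 CPM in neuroblasts against 169 and 2917 CPM in neurons, where neuron replicate 1 was barely above neuroblast replicate 1. Ih, the hyperpolarization-activated channel, overlapped, with 122 and 62.0 CPM in neuroblasts against 54.0 and 1820 CPM in neurons. The 2 channel genes above both neuron libraries, singled out after their values were seen, were tipE, an auxiliary subunit of the sodium channel, with 13.2 and 12.7 CPM in neuroblasts against 0.325 and 0.392 CPM in neurons, and KCNQ, with 17.0 and 15.5 CPM in neuroblasts against 0 and 11.7 CPM in neurons.

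Nicotinic acetylcholine receptors mediate fast excitation in the fly brain, and 5 of 9 tested subunits were below both neuron libraries and 1 above, with a median of -1.78. Again 0 passed by edgeR, 0 at an unadjusted p under 0.05 and 0 by DESeq2. nAChRalpha6 (chromosome 2L, 9793317 to 9886250) had 139 and 37.2 CPM in neuroblasts, against 721 and 1466 CPM in neurons, a difference of -3.82 ± 1.07. nAChRalpha5 had 63.0 and 61.2 CPM in neuroblasts against 378 and 1143 CPM in neurons, and nAChRalpha7 had 41.4 and 25.6 CPM in neuroblasts against 561 and 281 CPM in neurons. All 3 subunits were apart in both neuron libraries, with differences of -3.38 ± 0.80 for nAChRalpha5 and -3.57 ± 0.60 for nAChRalpha7. nAChRalpha1 had 57.5 and 87.0 CPM in neuroblasts against 625 and 95.6 CPM in neurons, and its groups overlapped on nuclear totals. nAChRbeta2, named after its values were seen, was the subunit above both neuron libraries, with 54.2 and 14.5 CPM in neuroblasts against 6.09 and 1.31 CPM in neurons.

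Axon guidance and adhesion molecules, the receptors and ligands by which growing axons find their targets, were also often below. Of 36 tested, 22 lay below both neuron libraries and 2 above, with a median of -1.74 (on nuclear totals 18 and 3, median -1.28), and 0 passed by edgeR, 0 at an unadjusted p under 0.05 and 0 by DESeq2. Dscam1, the hypervariable cell adhesion receptor, had 163 and 89.0 CPM in neuroblasts, against 537 and 1992 CPM in neurons, a difference of -3.09 ± 1.04. Fas1, the adhesion protein Fasciclin 1, had 211 and 123 CPM in neuroblasts against 486 and 2489 CPM in neurons. PlexB, a semaphorin receptor, had 355 and 232 CPM in neuroblasts against 765 and 1217 CPM in neurons, and both neuron libraries were again above. PlexA, its sister receptor, overlapped, with 883 and 555 CPM in neuroblasts against 370 and 608.5 CPM in neurons. Read singly, neuron replicate 1 was above both neuroblast libraries in 29 of 36 genes and below both in 4. Neuron replicate 2 was above both in 25 and below both in 8.

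Synaptic vesicle release genes showed the same order in fewer members. Of 29 tested, 13 were below both neuron libraries and 2 above, with a median of -1.31 (11 and 5 on nuclear totals), and 0 passed by edgeR, 0 at an unadjusted p under 0.05 and 0 by DESeq2. unc-13, which primes vesicles for fusion, had 732 and 388 CPM in neuroblasts against 1846 and 1607 CPM in neurons, a difference of -1.69 ± 0.47 that overlapped on nuclear totals. cpx, the fusion clamp complexin, had 445 and 374 CPM in neuroblasts against 607 and 2890 CPM in neurons. Sap47, a synapse-associated protein, had 298 and 222 CPM in neuroblasts against 154 and 3101 CPM in neurons, so its groups overlapped. For this list the neuron libraries parted. Neuron replicate 1 was above both neuroblast libraries in 15 genes and below both in 13, and neuron replicate 2 was above in 24 and below in 3. The 2 members above both neuron libraries, named after their values were seen, were Snap25, with 33.3 and 38.9 CPM in neuroblasts against 1.86 and 0 CPM in neurons, and Rop, with 111 and 84.7 CPM in neuroblasts against 0.743 and 22.0 CPM in neurons. Both encode core parts of the fusion machinery.

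Of 24 genes of neuronal identity, 7 lay below both neuron libraries and 2 above (median -1.24), and 0 passed by edgeR, 0 at an unadjusted p under 0.05, while DESeq2 called 1 higher. Taken alone, neuron replicate 1 was above both neuroblast libraries in 11 and below both in 10, and neuron replicate 2 was above in 18 and below in 4. fne, a relative of elav, had 423 and 116 CPM in neuroblasts against 188 and 4686 CPM in neurons. nrv3, a neuronal sodium pump subunit, had 594 and 337 CPM in neuroblasts against 182 and 3203 CPM in neurons, and the monoamine transporter gene Vmat had 165 and 133 CPM in neuroblasts against 5.39 and 2290 CPM in neurons. jim, a zinc finger protein, had 721 and 219 CPM in neuroblasts against 1423 and 709 CPM in neurons. All 4 overlapped, and in nrv3 and Vmat neuron replicate 1 lay below both neuroblast libraries.

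**Figure D2:**
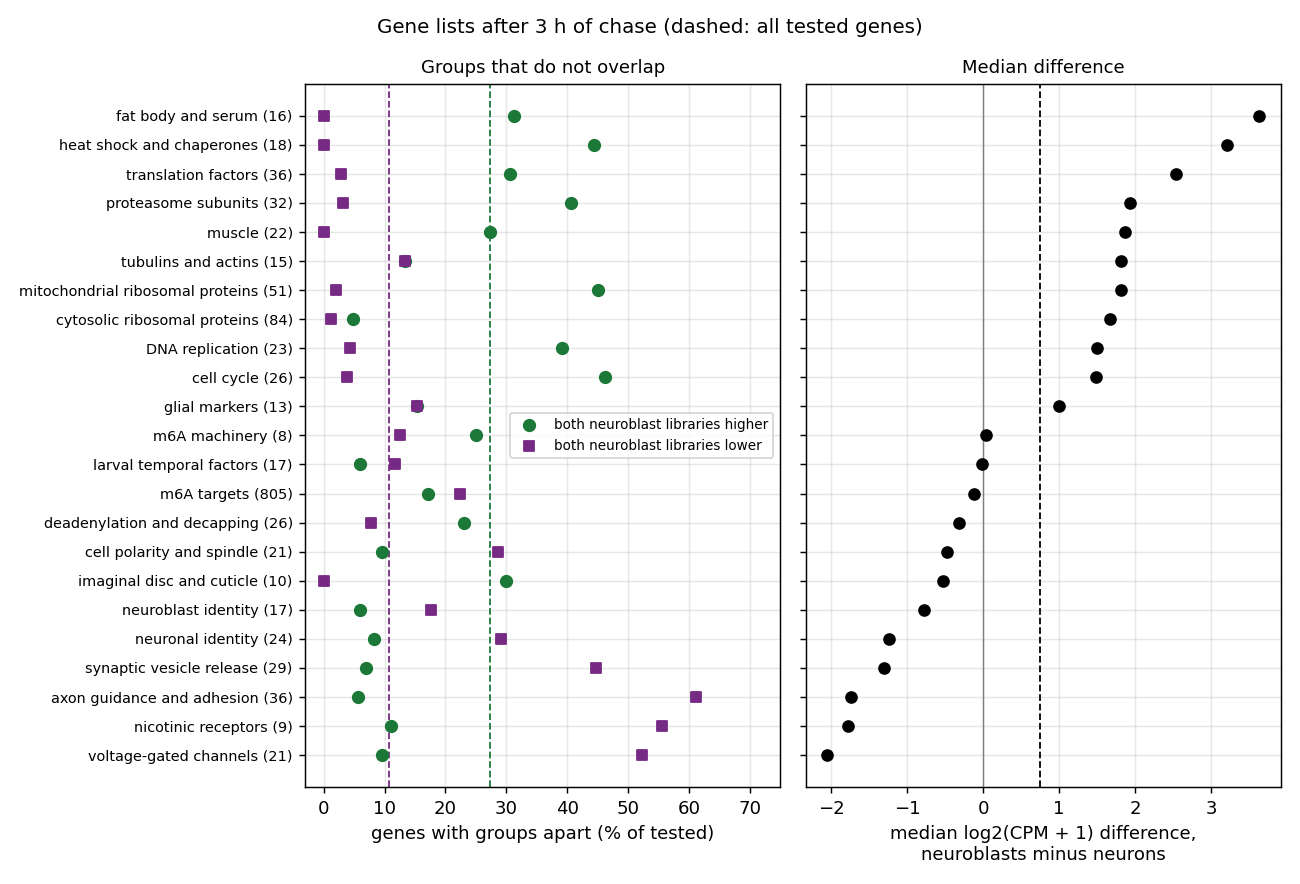
For each gene list (tested genes in brackets), the share of tested genes with both neuroblast libraries above (green circles) or below (purple squares) both neuron libraries, and the median difference in log2(CPM + 1), neuroblasts minus neurons. Dashed lines give all tested genes (27.3% higher, 10.6% lower, median 0.75), and the 5 neuronal lists at the bottom have medians between -2.05 and -1.24.

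The list of neuroblast identity genes did not stand above neurons as a group. This list also holds the differentiation factor gene pros and the translational repressor gene brat, and its median is the value of brat. Of 17 neuroblast identity genes tested, 1 lay above both neuron libraries and 3 below, with a median of -0.77, a balance that turned to 3 above and 1 below on nuclear totals, and 0 passed by edgeR, 0 at an unadjusted p under 0.05 and 0 by DESeq2. Neuron replicate 1 was above both neuroblast libraries in 10 genes and below both in 3, and neuron replicate 2 was above in 4 and below in 6. mira, which carries fate determinants to the daughter cell, had 0 and 21.3 CPM in neuroblasts, against 115.1 and 0.680 CPM in neurons. wor, a Snail family factor, had 0.0382 and 5.19 CPM in neuroblasts against 64.4 and 0 CPM in neurons. In both genes the highest value was in neuron replicate 1. ase, the proneural factor Asense, had 21.7 and 9.70 CPM in neuroblasts against 12.2 and 0 CPM in neurons. dpn, which encodes Deadpan, was too low to test, with 0 and 1.52 CPM in neuroblasts against 0 and 0.0262 CPM in neurons. grh, the Grainyhead factor, had 141 and 53.4 CPM in neuroblasts against 456 and 126 CPM in neurons, and pros, the Prospero differentiation factor, had 192 and 64.8 CPM in neuroblasts against 1567 and 444 CPM in neurons, apart here but overlapping on nuclear totals.

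Larval temporal factors set the age of a neuroblast lineage. Of 17 tested, 1 was above both neuron libraries and 2 below, with a median of -0.02 that was 0.19 on nuclear totals, and 0 passed by edgeR, 0 at an unadjusted p under 0.05 and 0 by DESeq2. The shares above and below were 5.88% and 11.8%, against 27.3% and 10.6% of all tested genes. By library, neuron replicate 1 was above both neuroblast libraries in 9 and below both in 2, and neuron replicate 2 was above in 5 and below in 7. Imp, the RNA-binding protein of early lineages, had 952 and 365 CPM in neuroblasts, against 1053 and 8419 CPM in neurons. Syp, its late counterpart, had 1481 and 263.5 CPM in neuroblasts against 992 and 264 CPM in neurons. chinmo, a zinc finger factor of early-born neurons, had 985 and 561 CPM in neuroblasts against 558.5 and 980 CPM in neurons. Imp was apart, while Syp and chinmo overlapped. Eip75B, a nuclear receptor of the ecdysone response, had 271 and 244 CPM in neuroblasts against 481 and 2283 CPM in neurons. Sp1 and run, transcription factors of neural lineages, had 0.153 and 14.7 CPM in neuroblasts against 18.4 and 7.90 CPM in neurons, and 0 and 2.86 CPM in neuroblasts against 0.0465 and 1.82 CPM in neurons, with run at or near 0 in both replicate 1 libraries.

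Of 21 cell polarity and spindle genes, 2 were above both neuron libraries and 6 below (median -0.47), which turned to 4 above and 2 below on nuclear totals (median -0.00478), and 0 passed by edgeR, 0 at an unadjusted p under 0.05 and 0 by DESeq2. Among the 21, neuron replicate 1 was above both neuroblast libraries in 9 and below both in 11, and neuron replicate 2 was above in 13 and below in 3. scrib, the Scribble scaffold, had 172 and 180 CPM in neuroblasts against 372 and 2235 CPM in neurons and was apart. l(2)gl, the cortical tumour suppressor Lgl, had 933 and 517 CPM in neuroblasts against 298 and 825 CPM in neurons. zip, the heavy chain of non-muscle myosin, had 385 and 259 CPM in neuroblasts against 90.8 and 1604 CPM in neurons. Both overlapped.

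Cell cycle genes carry the cell through S phase and mitosis. Of 26 cell cycle genes tested, 12 were above both neuron libraries and 1 below, with a median of 1.49 (12 and 2 on nuclear totals, median 1.42), and 0 passed by edgeR, 2 were higher at an unadjusted p under 0.05, and DESeq2 called 3 higher and 1 lower. Of the 12 above, 5 had passed the filter only through the neuroblast libraries and so had to differ. Set alone against neuroblasts, neuron replicate 1 was below both neuroblast libraries in 14 genes and above both in 10, and neuron replicate 2 was below in 18 and above in 4. CycD (chromosome X, 15906822 to 15909676), the cyclin of growth and G1, had 8.52 and 21.1 CPM in neuroblasts, against 0 and 0.105 CPM in neurons, a difference of 3.79 ± 0.61 with an unadjusted p of 0.0977 and an adjusted p of 0.860 by edgeR. The list's members with the most counts were not those that stood apart. E2f1, an S phase activator, had 306 and 102 CPM in neuroblasts against 27.0 and 763 CPM in neurons, fzr, an activator of the anaphase-promoting complex, had 69.95 and 44.3 CPM in neuroblasts against 557 and 24.0 CPM in neurons, and Rbf, the retinoblastoma protein, had 75.5 and 42.7 CPM in neuroblasts against 61.1 and 506 CPM in neurons. All 3 overlapped. Bub1, a kinase of the spindle checkpoint, overlapped too, with 17.6 and 12.97 CPM in neuroblasts against 0.976 and 834 CPM in neurons. Among the 12 above, named after their values were seen, CycA, the mitotic cyclin A, had 97.3 and 21.1 CPM in neuroblasts against 0.0929 and 0.0262 CPM in neurons, fzy, the Cdc20 protein, had 20.1 and 13.1 CPM in neuroblasts against 0.232 and 0 CPM in neurons, and aurB, the Aurora B kinase, had 19.6 and 3.18 CPM in neuroblasts against 0 and 0 CPM in neurons. The member below was borr, a subunit of the Aurora B complex, with 0 and 1.43 CPM in neuroblasts against 54.8 and 51.7 CPM in neurons.

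Of 23 DNA replication genes tested, 9 were above both neuron libraries and 1 below, with a median of 1.49, and 0 passed by edgeR, 5 were higher at an unadjusted p under 0.05 and DESeq2 called 5 higher. Of the 9 above, 6 had passed the filter only through the neuroblast libraries. Again the members with the most counts overlapped. PolA1, the catalytic subunit of polymerase alpha, had 39.6 and 16.6 CPM in neuroblasts against 13.3 and 928 CPM in neurons. Mcm6, a subunit of the replicative helicase, had 56.6 and 28.1 CPM in neuroblasts against 0 and 39.0 CPM in neurons. Fen1, the flap endonuclease, had 19.1 and 3.70 CPM in neuroblasts against 208 and 0 CPM in neurons, and RfC3, a clamp loader subunit, had 19.6 and 1.40 CPM in neuroblasts against 1.95 and 127 CPM in neurons. Among the 9 above, named after their values were seen, 2 more helicase subunits stood near 0 in neurons: dpa had 42.1 and 26.8 CPM in neuroblasts against 0 and 0.0262 CPM in neurons, and Mcm3 had 19.1 and 12.2 CPM in neuroblasts against 0 and 0 CPM in neurons. PolE1, the catalytic subunit of polymerase epsilon, had 21.2 and 18.4 CPM in neuroblasts against 0 and 0 CPM in neurons. The member below was Prim1, a primase subunit, with 0 and 2.56 CPM in neuroblasts against 99.8 and 15.7 CPM in neurons.

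**Figure D3:**
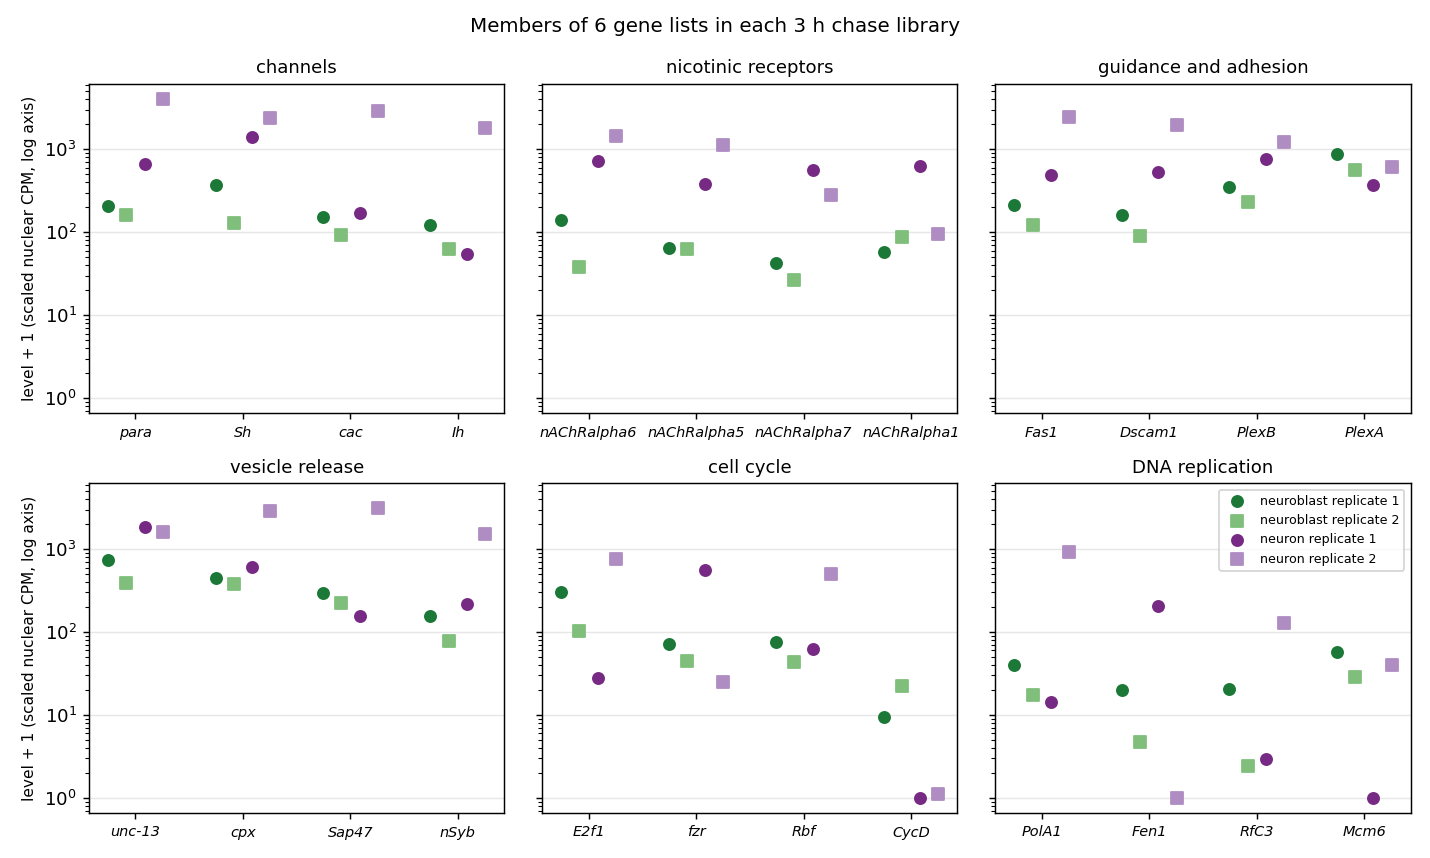
Level plus 1 (scaled nuclear CPM, logarithmic axis) of 4 members of each of 6 gene lists in the 2 neuroblast libraries (green) and the 2 neuron libraries (purple), circles for replicate 1 and squares for replicate 2. para, Sh and the nAChRalpha5, nAChRalpha6 and nAChRalpha7 genes have both purple points above both green points, CycD has both near the bottom at 0 and 0.105 CPM, and the other division genes shown have overlapping groups.

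Genes of other tissues had low values in neuron replicate 1. Of 16 fat body and serum genes, 5 were above both neuron libraries and 0 below (9 and 0 on nuclear totals, median 3.63), with 0 by edgeR, 1 higher at an unadjusted p under 0.05 and 1 higher by DESeq2. The 5 above were 31.25% of the list, near the 27.3% of all tested genes. Neuron replicate 1 was below both neuroblast libraries in 13 and above both in 1, and neuron replicate 2 was below in 8 and above in 7. apolpp, the lipophorin precursor, had 36490 and 23595 CPM in neuroblasts against 176 and 26677 CPM in neurons, and Lsp1gamma, a serum protein subunit, had 21302 and 5017 CPM in neuroblasts against 31.3 and 975 CPM in neurons. Lsp1beta, another serum subunit, had 17503 and 5732 CPM in neuroblasts against 7.06 and 3370 CPM in neurons. Of 22 muscle genes, 6 were above and 0 below (14 and 0 on nuclear totals), with 0 by edgeR, 1 higher at an unadjusted p under 0.05 and 1 higher by DESeq2. The 6 above were 27.3% of the list, the same as the 27.3% of all tested genes. Of the 6, 1 had passed the filter only through the neuroblast libraries. Neuron replicate 1 was below both neuroblast libraries in 22 of the 22, and neuron replicate 2 was above both in 13. Mhc, the myosin heavy chain, had 4053 and 13731 CPM in neuroblasts against 307 and 5248 CPM in neurons. Act57B, a muscle actin, had 5442 and 8898 CPM in neuroblasts against 107 and 18576 CPM in neurons. bt, a giant kinase of the muscle fibre, had 11148 and 10033 CPM in neuroblasts against 1088 and 5761 CPM in neurons, and sls, the titin relative Sallimus, had 6304 and 7554 CPM in neuroblasts against 1168 and 7329 CPM in neurons.

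Of 13 glial genes, 2 were above and 2 below, and of 10 imaginal disc and cuticle genes 3 were above and 0 below, with 0 by edgeR, 0 at an unadjusted p under 0.05 and 0 by DESeq2 in both. The shares above were 15.4% and 30%, against 27.3% of all tested genes. repo, the glial homeodomain factor, had 0 and 10.7 CPM in neuroblasts, against 67.3 and 530 CPM in neurons, and so lay below both. Gs2, glutamine synthetase, had 83.7 and 148 CPM in neuroblasts against 0.139 and 1507 CPM in neurons, drpr, the engulfment receptor Draper, had 34.2 and 113 CPM in neuroblasts against 0 and 580 CPM in neurons, and Gli, Gliotactin, had 53.7 and 85.0 CPM in neuroblasts against 1.72 and 346 CPM in neurons. These 3 had their lowest value in neuron replicate 1 and their highest in neuron replicate 2. Among the disc and cuticle genes, Lcp4, a cuticle protein, was above with 250.2 and 326 CPM in neuroblasts against 4.65 and 219 CPM in neurons, while Lcp3 had 36.6 and 114.8 CPM in neuroblasts against 0.0465 and 747 CPM in neurons and the eye development gene so (sine oculis) had 18.3 and 9.70 CPM in neuroblasts against 1.63 and 1659 CPM in neurons. Sgs1, a salivary glue protein, was not tested, with 0 and 0 in neuroblasts against 433.5 and 0.0262 CPM in neurons.

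Genes that every cell uses showed how far the 2 neuron libraries differed. Of 84 cytosolic ribosomal protein genes tested, 4 were above both neuron libraries and 1 below (16 and 1 on nuclear totals), yet neuron replicate 1 was below both neuroblast libraries in 73 and neuron replicate 2 above both in 65. Of 36 translation factors, 11 were above and 1 below, neuron replicate 1 was below both neuroblast libraries in 33, and neuron replicate 2 was above both in 22. eEF1alpha1, an elongation factor, had 4006 and 4437 CPM in neuroblasts, against 202 and 19503 CPM in neurons. pAbp, the poly(A)-binding protein, had 4992 and 2330 CPM in neuroblasts against 28.4 and 5377 CPM in neurons, eEF2 had 2286 and 3262 CPM in neuroblasts against 0.604 and 7107 CPM in neurons, and eIF4G1 had 1587 and 881 CPM in neuroblasts against 198 and 4225 CPM in neurons. Tubulins and actins behaved likewise, with 2 above and 2 below of 15 (4 and 2 on nuclear totals), and neuron replicate 1 below both neuroblast libraries in 12 and neuron replicate 2 above both in 12. Act5C had 2655 and 1649 CPM in neuroblasts against 0.418 and 10706 CPM in neurons, alphaTub84B had 536.5 and 1231 CPM in neuroblasts against 0.0929 and 6089 CPM in neurons, chic, profilin, had 679 and 291 CPM in neuroblasts against 2.65 and 1897 CPM in neurons, and betaTub56D had 484 and 682 CPM in neuroblasts against 95.5 and 1201 CPM in neurons. Shares above were 4.76% of ribosomal protein genes, 30.6% of translation factors and 13.3% of tubulins and actins, against 27.3% of all tested genes. By edgeR 0 members of these 3 lists passed. At an unadjusted p under 0.05 there were 2 translation factors higher and no other member, and DESeq2 called 4 translation factors higher and no other member.

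Of 51 tested mitochondrial ribosomal protein genes, 23 were above both neuron libraries and 1 below, with 0 by edgeR, 11 higher at an unadjusted p under 0.05 and 11 higher by DESeq2. Of the 23, 15 had passed the filter only through the neuroblast libraries. The 23 above were 45.1% of the list, against 27.3% of all tested genes. The list's median level was 12.3 CPM, and 49.0% of tested genes from 9.36 to 24.46 CPM were above. The part of level in this list was not tested. Of all 73 such genes in the tables, 40 and 1 had no count in neuroblast replicates 1 and 2, and 55 and 29 had none in neuron replicates 1 and 2. Of 32 proteasome subunits, 13 were above and 1 below, with 0 by edgeR, 3 higher at an unadjusted p under 0.05 and 4 higher by DESeq2, and 4 of the 13 had passed the filter only through the neuroblast libraries. Of 18 heat shock and chaperone genes, 8 were above and 0 below (median 3.22), with 0 by edgeR, 2 higher at an unadjusted p under 0.05 and 3 higher by DESeq2, and 3 of the 8 had passed in the same way. The shares above were 40.6% of proteasome subunits and 44.4% of heat shock and chaperone genes, against 27.3% of all tested genes. Hsp83, the fly Hsp90, had 367 and 1093 CPM in neuroblasts against 0.883 and 162 CPM in neurons. The constitutive chaperones overlapped, with Hsc70-3 at 970 and 880 CPM in neuroblasts against 35.97 and 3515 CPM in neurons, Hsc70-4 at 831 and 1734 CPM in neuroblasts against 8.27 and 2782 CPM in neurons, and Hsp60A at 114.8 and 413 CPM in neuroblasts against 154 and 223 CPM in neurons. Inducible heat shock genes were among the 8 above, named after their values were seen. Hsp68 had 54.1 and 91.4 CPM in neuroblasts against 0.372 and 0.0262 CPM in neurons, and Hsp70Ba, one of several near-identical Hsp70 copies, had 78.4 and 16.3 CPM in neuroblasts against 0 and 0 CPM in neurons.

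The m6A machinery writes and reads N6-methyladenosine in mRNA. Of 8 tested genes of the m6A machinery, 2 were above both neuron libraries and 1 below, with 0 by edgeR, 0 at an unadjusted p under 0.05 and 0 by DESeq2. The shares above and below, 25% and 12.5%, were near the 27.3% and 10.6% of all tested genes. Mettl3, the m6A methyltransferase, had 31.6 and 9.27 CPM in neuroblasts, against 0 and 569 CPM in neurons. Mettl14, its partner, had 13.1 and 8.48 CPM in neuroblasts against 4.14 and 0 CPM in neurons, apart here but overlapping with DESeq2 size factors. Ythdf, the cytoplasmic reader, had 79.9 and 43.4 CPM in neuroblasts against 88.7 and 20.3 CPM in neurons, and Ythdc1, the nuclear reader, had 19.8 and 67.7 CPM in neuroblasts against 219 and 34.7 CPM in neurons, so both readers overlapped. Fmr1, the fragile X homologue and a translational repressor, had 203 and 55.2 CPM in neuroblasts against 346 and 701 CPM in neurons and was the member below. fl(2)d, a writer complex subunit, had 85.5 and 42.1 CPM in neuroblasts against 71.6 and 181 CPM in neurons.

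Of 26 deadenylation and decapping factors, 6 were above both neuron libraries and 2 below, with a median of -0.32 that was 0.15 on nuclear totals, and with DESeq2 size factors 6 were above and 7 below. The main shares above and below, 23.1% and 7.69%, were near the 27.3% and 10.6% of all tested genes. Across the 26, neuron replicate 1 was below both neuroblast libraries in 17 and above both in 4, and neuron replicate 2 was below in 7 and above in 18. By edgeR 0 passed, with 0 at an unadjusted p under 0.05 and 1 higher by DESeq2. Not1, the scaffold of the CCR4-NOT deadenylase, had 1224 and 888 CPM in neuroblasts against 362 and 2133 CPM in neurons, AGO1, the miRNA Argonaute, had 793 and 342 CPM in neuroblasts against 211 and 2768 CPM in neurons, and brat, a translational repressor, had 484 and 185 CPM in neuroblasts against 1129 and 232 CPM in neurons. These overlapped. pum, the Pumilio repressor, was below both, with 301 and 204 CPM in neuroblasts against 420 and 1308 CPM in neurons.

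Of the study's 867 m6A targets, 852 were in both tables and 805 were tested. Both neuroblast libraries were above both neuron libraries in 138 of them and below both in 180, against the 27.3% and 10.6% of all tested genes, and their median difference was -0.12 (0.19 on nuclear totals). The balance depended on the scaling, with 181 above and 155 below on nuclear totals and 121 above and 237 below with DESeq2 size factors. By edgeR 0 passed, with 12 higher and 2 lower at an unadjusted p under 0.05 and 20 higher and 4 lower by DESeq2. The targets had a median annotated span, from the first to the last base of the gene with introns, of 20421 bp, against 3281 bp over all tested genes.

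Gene span went with the comparison across the whole transcriptome. When the tested genes were put in quintiles by span, both neuroblast libraries were below both neuron libraries in 6.73%, 4.69%, 6.50%, 10.3% and 25.0% of genes from the shortest quintile to the longest. The share above both was 31.5%, 33.6%, 31.8%, 25.1% and 14.4% in the same order. The longest quintile, 10723 to 1965857 bp, held 32.5% and 31.3% of the tested genes' counts in the neuroblast libraries, against 50.2% and 35.6% in the neuron libraries. Both neuron libraries thus put more of their counts on long genes, and neuron replicate 1 the most. The neuronal lists were drawn largely from this quintile. It held 18 of 21 channel genes, of which 10 were below, 32 of 36 guidance and adhesion genes, of which 19 were below, 6 of 9 nicotinic subunits, of which 5 were below, and 16 of 29 vesicle release genes, of which 11 were below. It also held 16 of 24 genes of neuronal identity, of which 5 were below. The share below also went with level, from 3.81% in the quintile of genes with the lowest CPM to 23.3% in the quintile with the highest. The share above was 37.8%, 49.0%, 28.5%, 14.4% and 6.79% from the lowest quintile by CPM to the highest. The DNA replication list had a median level of 11.9 CPM, inside the quintile with 49.0% above, and the cell cycle list one of 30.3 CPM, inside the quintile with 28.5% above. Their own shares above were 39.1% and 46.2%. The part of span and level in the neuronal and division lists was not tested.

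**Figure D4:**
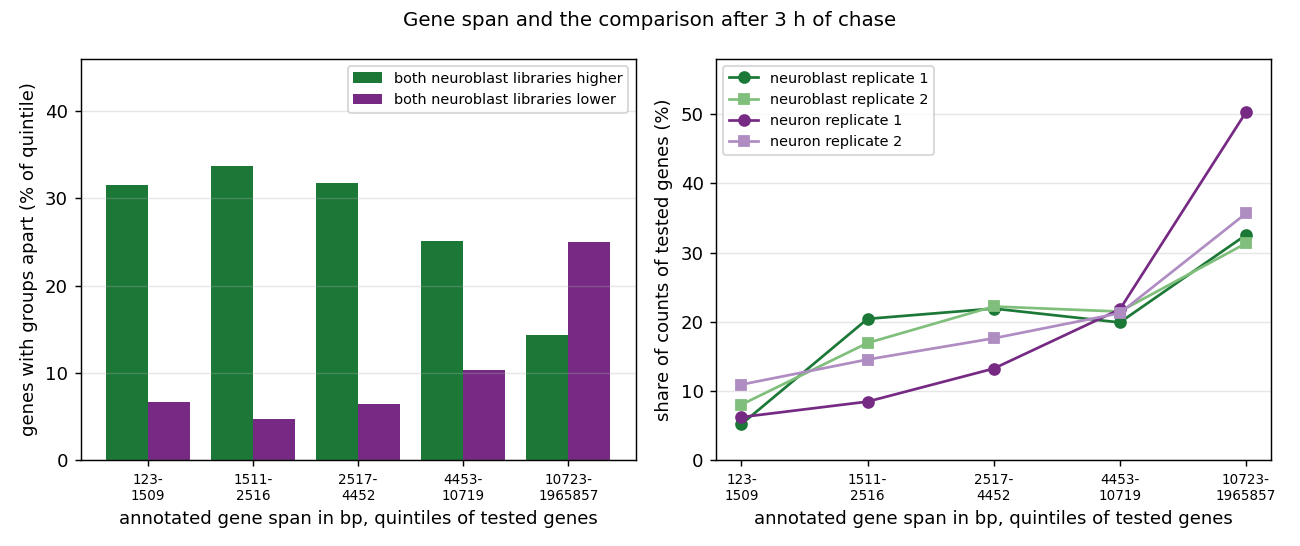
Left, the share of genes with both neuroblast libraries above (green) or below (purple) both neuron libraries, in quintiles of tested genes by annotated span in bp. Right, the share of the tested genes' counts that each quintile held in each library (green for neuroblasts, purple for neurons), where the longest quintile reaches 50.2% in neuron replicate 1 and between 31.3% and 35.6% in the other 3 libraries.

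The same order was looked for in the libraries of other times, which share none of these samples. In a fit of all 16 libraries, both neuroblast libraries were below both neuron libraries in 11.3% of 12719 genes after 6 h and 26.9% after 12 h of chase, and above both in 15.7% and 6.79%. Of 21 channel genes, 15 were below after 6 h and 13 after 12 h. Of 10 nicotinic subunits, 6 and 7 were below, of 29 vesicle release genes 10 and 9, and of 38 guidance and adhesion genes 7 and 23. At the end of the pulse, where 2.15% of genes were below and 38.7% above, 5 channel genes were below and 5 above, and 4 guidance and adhesion genes were below and 17 above. At that time 17 of 32 cell cycle genes and 14 of 28 DNA replication genes were above, with 0 of each below. The 2 neuron libraries at the end of the pulse were far apart on this scale. E2f1 had 0 and 268 CPM in them, PolA1 0 and 1.37 CPM and Muc96D 0 and 795578 CPM. Counts at the end of the pulse are thus descriptions and give no support on any list. Cell cycle genes had 1 above and 3 below of 32 after 6 h and 0 above and 11 below after 12 h. The 12 above after 3 h were of 26 tested genes on the scale of the 4 libraries, so they are not like these counts. DNA replication genes had 4 above and 1 below after 6 h and 1 above and 5 below after 12 h. The 2 neuroblast libraries after 12 h were also unlike. Replicate 1 had 4.65 CPM of Imp and 3.17 CPM of unc-13, against 248 and 143 CPM in replicate 2. The pseudogene 18SrRNA-Psi:CR45861 went the other way, with 369567 and 91587 CPM, as did Syp, with 356 and 197 CPM. Where replicate 1 was near 0, the order after 12 h rested on neuroblast replicate 2. Whether the lists differed between the times was not tested.

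On the scale of that fit, para had 87.9 and 28.6 CPM in neuroblasts against 479 and 1528 CPM in neurons after 6 h, and 107 and 138 CPM in neuroblasts against 468.5 and 415 CPM in neurons after 12 h. nAChRalpha6 had 0.167 and 23.2 CPM in neuroblasts against 537 and 612 CPM in neurons after 6 h, and 1.06 and 17.4 CPM in neuroblasts against 390 and 138.5 CPM in neurons after 12 h. Both genes were below in both neuroblast libraries at each chase time. nSyb had 91.3 and 116 CPM in neuroblasts against 551 and 667 CPM in neurons after 6 h and 100 and 147 CPM in neuroblasts against 282 and 114.9 CPM in neurons after 12 h, where its groups overlapped. CycD had 0.223 and 8.20 CPM in neuroblasts against 1.24 and 2.11 CPM in neurons after 6 h and 146 and 3.99 CPM in neuroblasts against 0 and 14.7 CPM in neurons after 12 h, overlapping at both. Of the genes without counts in neuroblasts after 3 h, Poxn, CG30222, lbe and CG13287 were not steadily present in neurons, while Blimp-1 was. After 6 h, neurons had 0 and 0.017 CPM of Poxn, 0 and 0.0227 of CG30222, 0 and 0.176 of lbe and 0.286 and 0.0114 of CG13287. After 12 h these were 0 and 14.2, 86.2 and 17.1, 5.13 and 8.51, and 226 and 12.4 CPM. Blimp-1 had 10.9 and 10.7 CPM in neuroblasts against 408 and 14.5 CPM in neurons after 6 h. After 12 h it had 0 and 0 CPM in neuroblasts against 131 and 52.8 CPM in neurons, and so was below at each chase time.

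The 10 genes with the highest mean CPM were not neural. Besides apolpp, Lsp1gamma, Act57B, bt and eEF1alpha1, they were 4 pseudogenes of ribosomal RNA and the mucin gene Muc96D. 18SrRNA-Psi:CR45861 had 47372 and 23592 CPM in neuroblasts, against 89.5 and 19230 CPM in neurons, and 28SrRNA-Psi:CR45851 had 32667 and 28274 CPM in neuroblasts against 141 and 15436 CPM in neurons. 28SrRNA-Psi:CR45862 had 30930 and 9572 CPM in neuroblasts against 17.6 and 6518 CPM in neurons, and 18SrRNA-Psi:CR41602 had 21699 and 11568 CPM in neuroblasts against 136 and 15175 CPM in neurons. Such pseudogenes share sequence with ribosomal RNA, so their counts may hold reads of either. All pseudogenes of this kind together took 17.7% and 10.6% of nuclear counts in neuroblasts, against 0.0954% and 2.87% in neurons. Muc96D had 807 and 223 CPM in neuroblasts against 406.5 and 66977 CPM in neurons, with its highest value in neuron replicate 2.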

How the data were processed

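EC-tagged RNA was measured by RNA-seq in 16 libraries, of which the 4 after 3 h of chase were compared. The authors trimmed the reads with Trimmomatic, assigned them to BDGP6 transcripts with kallisto (versions not given in the sources used here) and deposited estimated counts per transcript, without normalization. The neuroblast table held 31049 transcripts, of which 30944 were also in the neuron table, and 30812 of the shared ones (99.573%) matched Ensembl release BDGP6.54. Unmatched transcripts took between 0.0555% and 0.227% of counts in a library and were left out. Counts were summed per gene and rounded, and the 14 mitochondrial genes were left out of the 14221, leaving 14207, since their share differed widely between libraries. filterByExpr (minimum count 10) kept 8537 genes and dropped 5670.

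Groups came from the sample labels. The test was edgeR's quasi-likelihood test (edgeR 4.0.16, R 4.3.3) on TMM factors, with Benjamini-Hochberg adjustment over the 8537 genes and a threshold of 0.05, and its steps were tested on simulated data. DESeq2 1.42.0, limma-voom (limma 3.58.1), other scalings, filters and samples, the transcript with the most counts, a replicate block and leaving out each library were alternatives. Differences are means of log2(CPM + 1), neuroblasts minus neurons. Folds against a group at 0 used a floor of 3 counts over the group. Intervals and floors cover counting error only, since no molecular identifiers entered the counts used.

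The genes named were the 5 with the lowest p in each direction, the 4 members of each list with the highest mean level, fixed driver, marker, temporal and m6A genes, and the 10 genes with the highest mean level, and others are said to be named after their values were seen. Lists taken by symbol (ribosomal proteins, proteasome) and the m6A targets are described by counts, with named members only where given. Members and lists were chosen with earlier results of these data known. Of the 98 genes named by this rule, 30 overlap another coding gene, and whether the counting used strand is not given in the sources used here, so such reads may be shared.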

Additional observations from a re-analysis of the deposited data

Results flagged for a closer look

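Mitochondrially encoded RNA, which the comparison of nuclear genes left out, took 11.6% and 10.03% of counts in the neuroblast libraries, against 86.2976% in neuron replicate 1 and 5.07% in neuron replicate 2. The neuroblast table also held 105 transcripts that the neuron table did not, and these took 32974 counts in neuroblast replicate 2 against 0 in neuroblast replicate 1, with 39 of them at 10 counts or more. Neither was compared between the cell types.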

How the results depend on the processing

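The edgeR count of 0 higher and 0 lower also held on nuclear totals, with DESeq2 size factors, with mitochondrial counts in the library size, with no filter, at a mean of at least 50 counts, with limma-voom, over all 16 libraries, with 1 transcript per gene and, chosen after seeing the data, without the ribosomal RNA pseudogenes. DESeq2 gave 770 higher and 90 lower. Leaving out each library in turn gave between 0 and 788 higher and between 0 and 376 lower, with 0 in both directions when a neuroblast library was left out, and 1 library then stood for its cell type. The replicate numbers did not pair the samples (correlation of deviations -0.0716), and a fit with the replicate block called 0 higher and 0 lower, with 8 and 13 genes at an unadjusted p under 0.05. Of the single genes followed, elav alone changed direction. Its log2 fold change lay between -2.65 and 0.0868 over the fits without each library, and it was 0.0868 without neuron replicate 2. Apart from that, 196 fits of 15 genes kept their direction and their side of the threshold, and 25 kept the direction and passed it, all of them by DESeq2 or without a neuron library. Most of these 15 genes were those with the lowest p in each direction, at or near 0 in both libraries of one cell type. Their direction was largely fixed by that choice, and every fit that passed the threshold was of one of them. The counts of fits thus say little on stability. Among the genes not chosen by p, nSyb and para kept their direction in every fit and elav did not. The common coefficient of variation between replicates was 1.95, and neuron replicate 1 had the fewest nuclear counts.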

Other observations

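Groups of genes singled out after their values were seen stood as follows. The histone list took every gene whose symbol begins with His, pseudogenes included. Histone genes are near-identical copies among which reads are split uncertainly. Some members, such as His-Psi:CR33802 and His-Psi:CR33811, had the same count in each library, so members are not separate observations. Of 83 tested, both neuroblast libraries were below both neuron libraries in 46 and above both in 6, and on nuclear totals in 27 and 9. The main shares below and above were 55.4% and 7.23%, against 10.6% and 27.3% of all tested genes. Of the 46 below, 5 had passed the filter only through the neuron libraries, and of the 6 above, 5 only through the neuroblast libraries. The summed level of this list was 2434 and 1979 CPM in neuroblasts, against 4923 and 7584 CPM in neurons. After 6 h of chase 25 of 104 members of this list were below and 9 above, and after 12 h 54 were below and 3 above. Of 10 tested mucin genes, 1 was below and 0 above. The 1 below had passed the filter only through the neuron libraries and so had to differ. The mucin genes summed to 6885 and 2680 CPM in neuroblasts, against 16210 and 92008 CPM in neurons.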
